A study of Homo sapiens with 60 samples.

Results

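The water extract of Soyo-san at 500 µg/mL was compared with the same extract at 20 µg/mL in A549 cells, a human lung adenocarcinoma line with epithelial features. The comparison rested on 6 libraries, 3 at each dose, chosen by extract and dose among the 60 libraries of the series, and the 3 libraries at 100 µg/mL are shown as the step between. The contrast itself used no vehicle library. However, the filter on low counts, the scaling and the spread behind each p-value came from one fit of 57 libraries. That fit included the 3 vehicle libraries and the other extracts except Soshiho-tang. The vehicle was DMSO, given as 0.1% in the sample labels and as 2% in the description of the series. Soyo-san is a traditional multi-herb decoction whose classical recipe includes mint, the single herb Menthae Herba of the series. The recipe of the lot used here was not given in the sources used here. All libraries were made after 24 h of exposure of the same line, and the extract had been prepared by refluxing plant material in water for 3 h. The series also held other herbs and decoctions, of which Menthae Herba and Okbyeongpung-san, each with 3 libraries at 500 and 3 at 20 µg/mL, are used below as a contrast. The description of the series states that extracts with a 20% inhibitory concentration below 500 µg/mL were dosed by that concentration, whereas the labels of the Soyo-san samples print 500, 100 and 20. The labels do not say whether the 3 libraries of a dose came from separate cultures, and the spread in that fit, pooled over its 19 groups, may be technical. One cell line was used, and the data are from bulk RNA, where fewer cells of a kind and less RNA per cell cannot be told apart.

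NF-kB is a family of transcription factors held in the cytoplasm by inhibitors and released by cytokine and microbial signals. In airway epithelium its targets include chemokines that attract neutrophils and monocytes, complement components and adhesion molecules, along with the genes for its own inhibitors. The aryl hydrocarbon receptor (AhR) is a transcription factor activated by planar aromatic compounds, many of them of plant origin, and it switches on cytochrome P450 genes together with its own repressors. ID proteins are dominant-negative helix-loop-helix factors that are classical targets of bone morphogenetic protein (BMP) signalling, and NR4A receptors are orphan nuclear receptors induced rapidly by many stimuli.

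The Soyo-san libraries held 19368901 to 29081468 counts each. Mitochondrially encoded genes took a share of the counts of 16.3% ± 2.76 (SD, n = 3) at 500, 14.7% ± 2.84 at 100 and 15.8% ± 2.07 at 20, a difference of 0.468 percentage points between 500 and 20 (exact permutation test, two-sided p = 0.9, the smallest possible being 0.1). The 3 libraries with the highest share, 500 replicate 1 (19.4%), 100 replicate 1 (18%) and 20 replicate 2 (17.8%), also stood apart on the first principal component of the 9 libraries, which held 19.9% of the variance. There is one of them at each dose. Keratin genes KRT8 and KRT18 and the A549 enzymes ALDH1A1 and AKR1B10 were among the defining markers found at high levels, with at least 1975 CPM (a gene's counts scaled to a common library total) in each of the 9 libraries. The lung lineage factor NKX2-1 and the surfactant genes SFTPC and SFTPA1 were at or near 0, with at most 0.102 CPM. Markers of other cells were mostly low. The T cell gene CD3E and the B cell gene MS4A1 were at 0, PTPRC reached at most 0.0512 CPM, and all 4 endothelial markers were below 1 CPM. Of the other immune markers, CD14 ran from 2.00 to 3.02 CPM and ITGAM from 1.29 to 1.82 CPM over the 9 libraries. LYZ had 2 counts at 20, 0 at 100 and 19 at 500, and did not pass. The summed level of the 7 immune markers ran from 3.81 to 4.45 CPM at 20, from 3.45 to 4.48 CPM at 100 and from 4.35 to 4.91 CPM at 500. The ranges at 20 and 500 overlapped, and the part of these genes in the results was not tested. The fibroblast gene COL1A1 (28.6 to 32.4 CPM) and the neural gene SNAP25 (43.5 to 52.8 CPM) were present at every dose.

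At 500 µg/mL of Soyo-san, 5 CXCL chemokine genes, the complement genes CFB, C3 and C1R and the AhR targets CYP1A1, CYP1B1 and TIPARP were higher than at 20, and ID4, ID2, ID3, the 3 NR4A receptors and GPX1 were lower. Of 17256 genes tested, 106 were called at an adjusted p under 0.05 (edgeR quasi-likelihood test with Benjamini-Hochberg adjustment), which is 0.614% of them: 57 were higher (0.33%) and 49 lower (0.284%) at 500. All 57 and all 49 had groups that did not overlap, against 6.32% and 5.82% of all genes tested with groups not overlapping in that direction. Overlap was read from the same libraries as the calls, so called genes were likely to show none. The comparison with those percentages is therefore not a separate test of the calls. The same holds for the statements on overlap between 20 and 500 for called genes below. Most changes were small. At least a 2-fold rise was seen in 13 genes and at least a 2-fold fall in 2, while 40 of the higher and 43 of the lower genes moved by less than 1.5-fold. The 13 were CXCL8, CXCL1, CXCL2, CXCL3, CXCL5, CCL2, IL32, CFB, LCN2, ICAM1 and CYP1A1, and, outside the rule for named genes and named after their values were seen, LTB and PDZK1IP1. The cytokine LTB rested on 8 counts in all 3 libraries at 20 and 37 at 500. The genes that fell at least 2-fold, also named after their values were seen, were PCDHAC1 (log2 fold change -1.01), whose exons are shared with its protocadherin neighbours so that its counts are uncertain, and the unnamed gene ENSG00000245748, at 0.728, 0.506 and 0.378 CPM at 20 and at 0.0854, 0 and 0.0836 CPM at 500. With the spread taken from the 9 Soyo-san libraries alone the count was 35, of which 32 were among the 106. Without the 3 libraries of the highest mitochondrial share it was 62, 54 of them among the 106. The lists of CXCL chemokines, AhR targets, complement, ID and BMP genes and NR4A receptors then had 5, 3, 3, 4 and 3 calls, as before. Other lists lost calls. The other NF-kB response genes had 8, the NF-kB subunits and feedback inhibitors 1 and the YAP and TEAD targets 1. The NRF2, KLF, hypoxia and glycolysis, G1/S and mucin lists were among those with 0. The count of called genes was 63 without 20 replicate 1, 62 without 500 replicate 2 and 67 without 500 replicate 3.

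**Figure D1:**
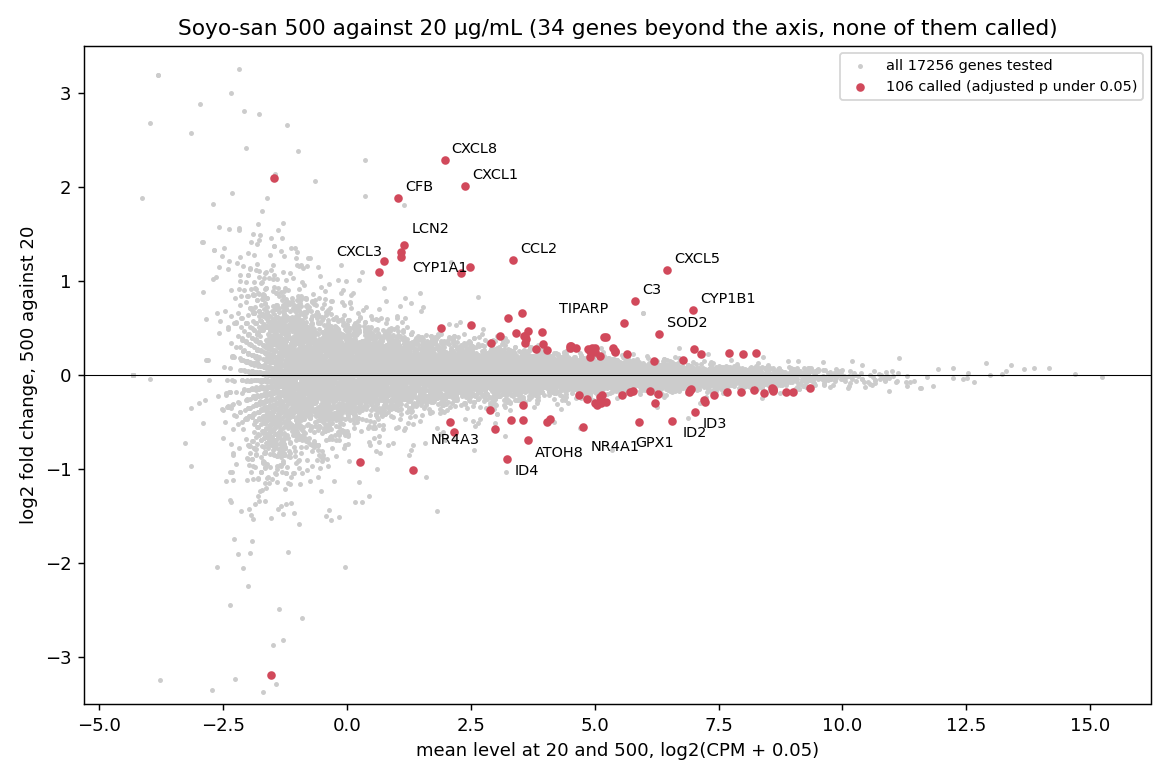
Change from 20 to 500 µg/mL of Soyo-san (log2 fold change, vertical) against the mean level of the 2 groups (log2 of CPM + 0.05, horizontal) for all 17256 genes tested, with the 106 called genes in red. The chemokine genes CXCL8 (2.29) and CXCL1 (2.01) lie highest among the labelled genes, and ID4 (-0.89) and ATOH8 (-0.69) lie lowest of those labelled below 0. The 34 genes beyond the axis of 3.5 include 0 called genes.

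The CXCL chemokines had the highest median change among the lists. Of 10 members 6 were tested, 5 rose, and CXCL16 did not pass (0.14, adjusted p = 0.782). The list median was 1.21 against 0.0018 over all genes tested. CXCL6, CXCL10, CXCL11 and CXCL17 had too few counts to be tested. The 5 calls were present in each of the 17 alternative analyses.

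CXCL8 (interleukin 8, ENSG00000169429, chromosome 4, 73740506 to 73743716, GRCh38) draws neutrophils into the airway. It stood at 1.29, 1.47 and 1.18 CPM in the libraries at 20, at 2.18, 2.45 and 2.56 CPM at 100, and at 6.75, 6.26 and 6.27 CPM at 500. Every library at 500 lay far above every library at 20, and the libraries at 100 lay between them without overlap. The log2 fold change from 20 to 500 was 2.29 ± 0.170 (SE; adjusted p = 1.90e-13), a 4.89-fold rise. These values rested on 28 to 32 counts per library at 20 and 150 to 162 at 500. From 20 to 100 the change was 0.86 ± 0.190 and did not pass (adjusted p = 0.369), and from 100 to 500 it was 1.43 (adjusted p = 4.98e-08).

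CXCL1 (chromosome 4, 73869393 to 73871242), a ligand of the same neutrophil receptor CXCR2, was at 2.10, 2.48 and 1.59 CPM at 20, 2.94, 2.92 and 3.23 CPM at 100, and 8.97, 8.65 and 7.27 CPM at 500. The highest library at 100 was below the lowest at 500, and the groups at 20 and 500 did not overlap (log2 fold change 2.01 ± 0.184, adjusted p = 1.27e-10). CXCL2 (chromosome 4, 74097035 to 74099293) stood at 3.32, 3.08 and 2.94 CPM at 20 and 6.45, 6.37 and 7.06 CPM at 500 (1.09 ± 0.131, adjusted p = 2.19e-07). CXCL3 (chromosome 4, 74036589 to 74038807) stood at 1.25, 1.01 and 1.3 CPM at 20 and 3.46, 2.28 and 3.18 CPM at 500 (1.31 ± 0.185, adjusted p = 7.70e-06). These 3 genes are near-identical copies, so the split of reads between them is uncertain. Their summed level was 6.36 ± 0.459 CPM at 20, 9.33 ± 0.274 CPM at 100 and 17.9 ± 0.858 CPM at 500 (mean ± SD, n = 3), a 2.81-fold ratio of the means of 500 and 20.

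CXCL5 (chromosome 4, 73995642 to 73998779), another CXCR2 ligand typical of lung epithelium, gave the smallest adjusted p of the 5. It stood at 56.0, 52.3 and 57.4 CPM at 20, at 72.2, 77.2 and 74.4 CPM at 100, and at 124, 114 and 121 CPM at 500. The 3 doses formed separate steps. The log2 fold change from 20 to 500 was 1.12 ± 0.0481 (adjusted p = 3.61e-22). It was also the gene called from 20 to 100, with a log2 fold change of 0.43 ± 0.0488 (adjusted p = 3.65e-07).

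The promoters of the 5 chemokine genes are shown because the genes moved together and share a stretch of the form bound by NF-kB. The windows run from 110 to 31 bases before the transcription start of the RefSeq entry (GRCh38.p14), 5′ to 3′ on the gene's strand, and the capitals mark the motif GGAATTTCC, searched on both strands. CYP1A1 is added with the AhR core motif GCGTG in capitals, also searched on both strands.
CXCL8 (chr4:73740459-73740538, + strand): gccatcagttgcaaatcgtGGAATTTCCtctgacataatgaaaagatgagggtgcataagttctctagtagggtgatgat
CXCL1 (chr4:73869283-73869362, + strand): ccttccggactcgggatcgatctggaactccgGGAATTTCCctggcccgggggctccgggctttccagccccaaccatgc
CXCL2 (chr4:74099226-74099305, - strand): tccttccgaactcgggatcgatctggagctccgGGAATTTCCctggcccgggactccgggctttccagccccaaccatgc
CXCL3 (chr4:74038720-74038799, - strand): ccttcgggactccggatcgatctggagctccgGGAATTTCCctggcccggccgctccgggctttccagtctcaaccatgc
CXCL5 (chr4:73998708-73998787, - strand): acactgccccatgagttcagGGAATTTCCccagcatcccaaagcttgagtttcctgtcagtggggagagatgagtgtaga
CYP1A1 (chr15:74725559-74725638, - strand): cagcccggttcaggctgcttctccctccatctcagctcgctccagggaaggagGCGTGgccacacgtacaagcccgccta

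The motif GGAATTTCC began 91 bases before the start in CXCL8, 90 in CXCL5, 78 in CXCL1 and CXCL3 and 77 in CXCL2. It was found in 162 of the 35116 RefSeq promoter entries (250 bases before to 50 after the start), or 0.461%. The 5 promoters were shown because they share these letters, so their matches are not a test against that percentage. The CXCL1 and CXCL3 windows were identical at 73 of 80 bases without gaps. The CXCL2 window matched them at 50 and 45 bases in place, and reads much like theirs once the motifs are aligned. CXCL1, CXCL2 and CXCL3 are therefore not separate observations of the motif. Of the 7 called other NF-kB response genes with a promoter entry, 1 held it (ICAM1), and of the 2 called subunit and feedback genes with an entry, 1 held it (NFKBIZ). The called AhR, ID and NR4A genes with an entry held it in 0 cases. The motif GCGTG was found in 36.5% of all entries, and 57 bases before the start in CYP1A1. Among called genes with an entry, 2 of 2 AhR, 1 of 5 CXCL and 5 of 7 other NF-kB response genes held it. So did 1 of 2 subunit and feedback, 2 of 4 ID and BMP and 2 of 2 NR4A genes. The looser form GGNNNTTCC (N any base) was found in 20.05% of entries. It was held by 5 of 5 CXCL, 5 of 7 other NF-kB response and 2 of 2 subunit and feedback genes. The same was true of 1 of 2 AhR, 1 of 4 ID and BMP and 1 of 2 NR4A genes. A gene with several entries was counted if any of them held the motif, whereas the percentages are per entry. The gene counts are therefore raised against the percentages for IL32, SOD2, NFKBIZ, TIPARP and NR4A1, which had more than 1 entry. A match is a description of these letters and not of binding.

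The other NF-kB response genes rose in 9 of 17 members tested and fell in 0, with a list median of 0.44 (30 members, 13 with too few counts to be tested). CCL2, which attracts monocytes (chromosome 17, 34255218 to 34257203), was at 5.91, 6.94 and 5.46 CPM at 20, 7.62, 6.51 and 7.02 CPM at 100, and 15.2, 13.9 and 13.7 CPM at 500. Its libraries at 20 and 100 overlapped, and those at 500 lay above both (1.23 ± 0.154 from 20 to 500, adjusted p = 5.28e-07). IL32, a proinflammatory cytokine, was at 3.16, 3.68 and 3.53 CPM at 20 and 8.50, 6.80 and 7.69 CPM at 500 (1.15 ± 0.166, adjusted p = 1.09e-05). The iron-carrier protein gene LCN2 was at 1.21, 1.06 and 1.34 CPM at 20 and 3.76, 2.7 and 3.01 CPM at 500 (1.38 ± 0.230, adjusted p = 1.82e-04). ICAM1, an adhesion molecule for leukocytes, had 0.688, 1.06 and 1.22 CPM at 20 and 2.39, 2.32 and 2.17 CPM at 500 (1.22 ± 0.287, adjusted p = 0.0246). ICAM1 lost its call in 5 of the 6 leave-one-out fits, with 0.275 without 20 replicate 1 as the highest adjusted p. CFB and C3, described with the complement genes below, were also called. The remaining 3 called members, named after their values were seen, were the mitochondrial superoxide dismutase SOD2 (0.44), the apoptosis inhibitor BIRC3 (0.41) and the signalling kinase IRAK2 (0.44). Among those that did not pass were TNFAIP2 (0.19), PTGS2 (0.03), LIF (0.07) and IL11 (-0.19).

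The genes of NF-kB itself moved less. Of 15 subunits and feedback inhibitors, 3 rose, 0 fell and 14 had a fold change above 0, with a median of 0.14. TNFAIP3, a ubiquitin-editing enzyme that shuts the pathway down, was at 6.63, 7.63 and 8.14 CPM at 20 and 10.5, 11.2 and 12.4 CPM at 500 (0.61 ± 0.104, adjusted p = 2.89e-04). The nuclear IkB-type regulator NFKBIZ was at 11, 9.97 and 10.7 CPM at 20 and 15.1, 12.2 and 16.6 CPM at 500, so that 500 replicate 2 lay closest to the lower dose (0.47 ± 0.0876, adjusted p = 0.00138). Without 500 replicate 3 its adjusted p was 0.0622. The subunit RELB stood at 12.9, 12.6 and 13.1 CPM at 20 and 15.7, 17.3 and 20.3 CPM at 500 (0.46 ± 0.115, adjusted p = 0.0407). RELB missed the threshold in 5 of the 6 fits with a library left out, with 0.359 without 500 replicate 3, where 1 gene of the list was called. The classical inhibitor NFKBIA (0.13, adjusted p = 0.700), NFKB1 (0.19), NFKB2 (0.22) and RELA (0.01) did not pass.

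**Figure D2:**
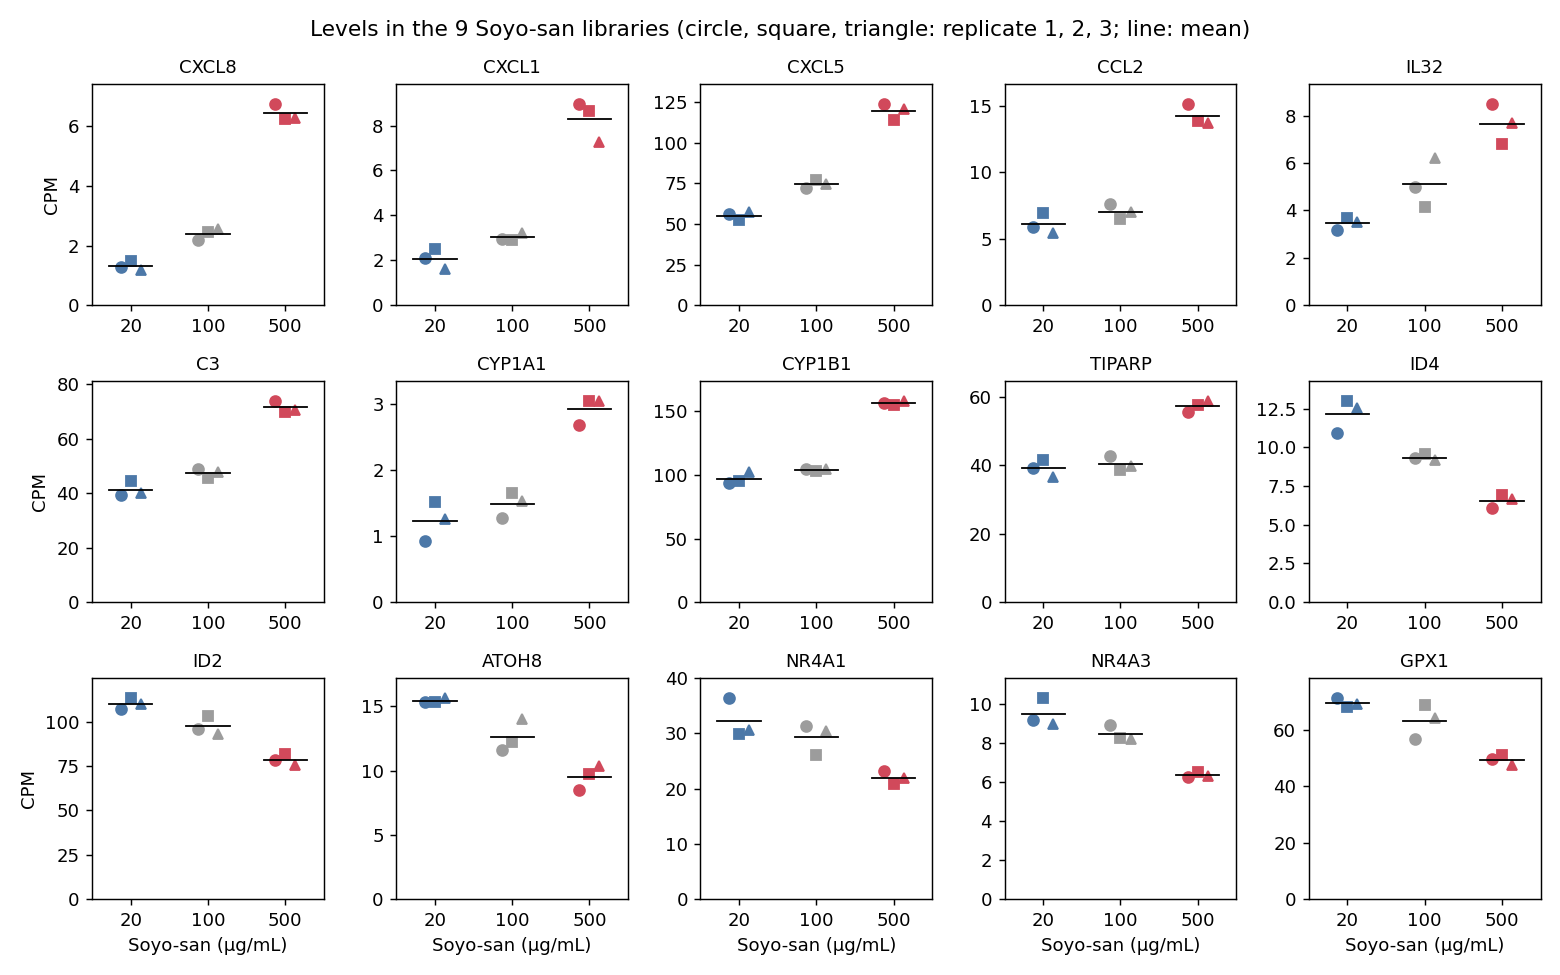
Level (CPM, vertical, from 0) of 15 genes in each of the 9 Soyo-san libraries at 20, 100 and 500 µg/mL (horizontal), with the mean of each dose as a line. In each panel the 3 libraries at 500 lie on one side of the 3 libraries at 20, as for CXCL8 (1.18 to 1.47 CPM at 20 and 6.26 to 6.75 CPM at 500) and ID4 (10.9 to 13.0 and 6.07 to 6.91 CPM).

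Of 13 complement genes 3 rose and 0 fell, with a list median of 0.0094. C3, the central component (chromosome 19, 6677704 to 6730562), was at 39.5, 44.3 and 40.2 CPM at 20, at 49.0, 45.7 and 47.9 CPM at 100 and at 73.9, 69.9 and 70.6 CPM at 500. The step from 20 to 100 was small and the step to 500 was clear of both lower doses (0.79 ± 0.0693 from 20 to 500, adjusted p = 3.88e-11). CFB, the protease of the alternative pathway (chromosome 6, 31945650 to 31952084), was at 1.05, 0.597 and 0.881 CPM at 20 and 3.46, 3.21 and 2.76 CPM at 500 (1.88 ± 0.215, adjusted p = 7.10e-08). C1R, the first protease of the classical pathway, was at 27.9, 26.4 and 28.9 CPM at 20 and 32.1, 34.2 and 34.9 CPM at 500 (0.28 ± 0.0517, adjusted p = 9.71e-04). C1S (0.21, adjusted p = 0.11) and the membrane regulators CD46 (0.01), CD55 (-0.17) and CD59 (0.00) did not pass. CFB and C3 are members of the NF-kB response list too. Of the 11 acute phase genes tested, edgeR and DESeq2 each called 0, with 3 at an unadjusted p under 0.05, and the covariate of mitochondrial share gave 1 lower. The values included the fibrinogen chains FGA (-0.11), FGB (-0.07) and FGG (-0.16).

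Of the 10 AhR targets tested 3 rose and 0 fell, with a list median of 0.14, and these calls were present in all 17 alternative analyses. CYP1A1, the oxidising enzyme most used to read out the receptor (ENSG00000140465, chromosome 15, 74719542 to 74725610), stood at 0.930, 1.52 and 1.26 CPM at 20, at 1.27, 1.65 and 1.54 CPM at 100 and at 2.69, 3.05 and 3.05 CPM at 500. Libraries at 20 and 100 overlapped, and all at 500 lay higher. The log2 fold change was 1.25 ± 0.183 (adjusted p = 1.31e-05), on 23 to 33 counts per library at 20 and 63 to 79 at 500. CYP1B1, the second P450 of the receptor (chromosome 2, 38066973 to 38109902), was at 94.0, 94.9 and 102 CPM at 20, 104, 103 and 105 CPM at 100 and 157, 155 and 158 CPM at 500 (0.69 ± 0.0428, adjusted p = 3.20e-16). TIPARP, an ADP-ribosylating enzyme of the receptor's negative feedback (chromosome 3, 156673235 to 156706770), was at 39.2, 41.6 and 36.6 CPM at 20, 42.7, 38.6 and 39.8 CPM at 100 and 55.5, 57.6 and 58.8 CPM at 500 (0.55 ± 0.0530, adjusted p = 5.80e-10). For both genes the libraries at 100 lay beside those at 20.

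The receptor's repressor AHRR had 4.94, 4.96 and 4.70 CPM at 20 and 6.15, 6.33 and 6.02 CPM at 500. These groups did not overlap, but the fold change did not pass (0.34 ± 0.127, adjusted p = 0.388). The receptor gene AHR (-0.14), UGT1A6 (0.24), ALDH3A1 (-0.01) and NQO1 (0.03) did not pass either. Of 31 NRF2 targets, the antioxidant genes to which NQO1 also belongs, 1 rose, the haem-degrading enzyme HMOX1. Its levels were 133, 129 and 132 CPM at 20 and 159, 153 and 149 CPM at 500 (0.23 ± 0.0430, adjusted p = 0.00139). HMOX1 lost its call in 3 alternative settings (adjusted p up to 0.135).

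On the lower side, 4 of the 17 ID and BMP feedback genes fell and 0 rose, with a list median of -0.30, and 13 of the 17 fold changes were below 0. ID4 (ENSG00000172201, chromosome 6, 19837386 to 19840684) was at 10.9, 13.0 and 12.5 CPM at 20, at 9.29, 9.57 and 9.17 CPM at 100 and at 6.07, 6.91 and 6.65 CPM at 500. No library of one dose overlapped with another dose. The log2 fold change from 20 to 500 was -0.89 ± 0.0945 (adjusted p = 9.68e-09), and that from 20 to 100 was -0.38 ± 0.0911 and did not pass (adjusted p = 0.652).

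ATOH8, a helix-loop-helix factor responsive to BMP (chromosome 2, 85751344 to 85788066), was at 15.3, 15.3 and 15.7 CPM at 20, 11.6, 12.2 and 14 CPM at 100 and 8.50, 9.77 and 10.3 CPM at 500 (-0.69 ± 0.0926, adjusted p = 2.32e-06). ID2 (chromosome 2, 8678845 to 8684453) was at 107, 113 and 110 CPM at 20, 96.0, 103 and 93.3 CPM at 100 and 78.4, 82.0 and 75.7 CPM at 500 (-0.49 ± 0.0579, adjusted p = 1.79e-07). The 3 doses of both genes were ordered with no overlap between groups. ID3 (chromosome 1, 23557918 to 23559794) was at 152, 149 and 145 CPM at 20 and 109, 118 and 113 CPM at 500 (-0.39 ± 0.0636, adjusted p = 1.47e-04). ID1 (-0.30, adjusted p = 0.0822), the ligand BMP6 (-0.33, adjusted p = 0.0816) and the inhibitory SMAD6 (-0.16) did not pass. The secreted antagonist GREM1 had a positive value (0.36, adjusted p = 0.145), and SMAD7 was at 0.07.

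All 3 NR4A receptors fell, with a median of -0.58. NR4A1 (chromosome 12, 52022832 to 52059507) was at 36.5, 29.9 and 30.7 CPM at 20, 31.4, 26.1 and 30.4 CPM at 100 and 23.3, 20.9 and 21.9 CPM at 500 (-0.56 ± 0.0865, adjusted p = 4.95e-05). NR4A3 (chromosome 9, 99821855 to 99866891) was at 9.18, 10.3 and 8.98 CPM at 20 and 6.24, 6.49 and 6.31 CPM at 500 (-0.58 ± 0.0725, adjusted p = 5.28e-07). NR4A2 (chromosome 2, 156324432 to 156342348) was at 6.11, 4.64 and 5.33 CPM at 20 and 3.85, 3.67 and 3.05 CPM at 500 (-0.61 ± 0.151, adjusted p = 0.0403). The groups of each gene did not overlap between 20 and 500, which the rule for naming the lowest genes required. NR4A2 lost its call for 5 of the 6 libraries when left out, and its highest adjusted p was 0.348, without 20 replicate 1. Of 18 immediate early genes tested, which are induced by many of the same stimuli, edgeR called 0, with 6 at an unadjusted p under 0.05, and DESeq2 called 1 lower. The stricter filter, the mitochondrial covariate, the replicate block and leaving out 20 replicate 2 also each gave 1 lower, with 1 higher too under the block.

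Single members of other lists also fell. GPX1, a selenium-dependent peroxidase (chromosome 3, 49357171 to 49358600, annotated as a polymorphic pseudogene in GENCODE 29), was at 71.4, 68.3 and 69.3 CPM at 20, 57, 68.8 and 64.1 CPM at 100 and 49.6, 51.0 and 47.6 CPM at 500 (-0.50 ± 0.0607, adjusted p = 2.86e-07). It was the one called gene of 14 selenoproteins tested, whose median was -0.09. IGFBP5, a binding protein of insulin-like growth factors, was at 19.5, 19.8 and 18.3 CPM at 20 and 13.8, 13.0 and 14 CPM at 500 (-0.49 ± 0.0782, adjusted p = 7.17e-05), the one called member of 10 in its list. ANKRD1, a target of the YAP coactivator, was at 13.4, 15.6 and 12 CPM at 20 and 10.0, 9.77 and 9.66 CPM at 500 (-0.47 ± 0.0789, adjusted p = 1.82e-04). With CRIM1 (-0.18) it made 2 of 13 YAP and TEAD targets, while CCN1 (0.07) and CCN2 (0.02) did not pass. CRIM1 was lost without 500 replicate 1 (0.0907) and without 20 replicate 2.

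The transcription factors KLF4 (-0.37, adjusted p = 0.0407) and SPDEF, which directs goblet cells (-0.48, adjusted p = 0.0168), the secreted hormone STC1 (-0.47), BCAS1 (-0.32), the ubiquitin ligase RNF43 (-0.50), the glucose transporter SLC2A3 (-0.21), the feedback inhibitor of growth factor receptors ERRFI1 (-0.16), the cyclin CCND1 (-0.15) and the sterol transport gene GRAMD1B (-0.28) fell too. Leaving out 1 library ended 5 of 6 times the call of KLF4, RNF43 and SLC2A3, 4 times that of BCAS1, 3 times that of SPDEF and 2 times those of STC1 and CCND1. Their highest adjusted p values were 0.271 (KLF4), 0.148 (RNF43), 0.399 (SLC2A3), 0.265 (BCAS1), 0.156 (SPDEF), 0.206 (STC1) and 0.0805 (CCND1). ERRFI1 kept its call with any 1 library left out but lost it in 4 other settings (adjusted p up to 0.348).

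On the higher side, the matrix protease MMP7 was at 5.14, 3.54 and 5.04 CPM at 20 and 6.71, 6.57 and 6.6 CPM at 500 (0.53 ± 0.11, adjusted p = 0.00609), and it did not pass without 20 replicate 2 (adjusted p = 0.147). The secreted C1QTNF1, a relative of complement C1q, was at 8.90, 8.00 and 9.82 CPM at 20 and 14.9, 13.1 and 14.3 CPM at 500 (0.66 ± 0.0772, adjusted p = 1.25e-07). The groups of both genes did not overlap between 20 and 500, which the rule for naming the highest genes required.

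Several programmes had 0 members called in either direction: 23 p53 targets (median 0.02), 30 ATF4 and integrated stress response genes (0.09), 19 ER chaperone genes (0.04), 17 heat shock genes (-0.02), 25 cholesterol synthesis genes (0.06), 26 mitosis genes (-0.02), 34 cytosolic ribosomal protein genes (0.03) and 15 mitochondrially encoded genes (0.07). These counts are by edgeR at an adjusted p under 0.05, and DESeq2 also called 0 in each of these lists. At an unadjusted p under 0.05 there were 2 p53 targets, 5 ATF4 genes, 2 ER chaperone genes, 5 cholesterol synthesis genes and 0 in the others. With the mitochondrial share as covariate 1 p53 target was called higher. Over all genes tested, 1282 (7.43%) had an unadjusted p under 0.05, and DESeq2 called 118 genes in all.

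**Figure D3:**
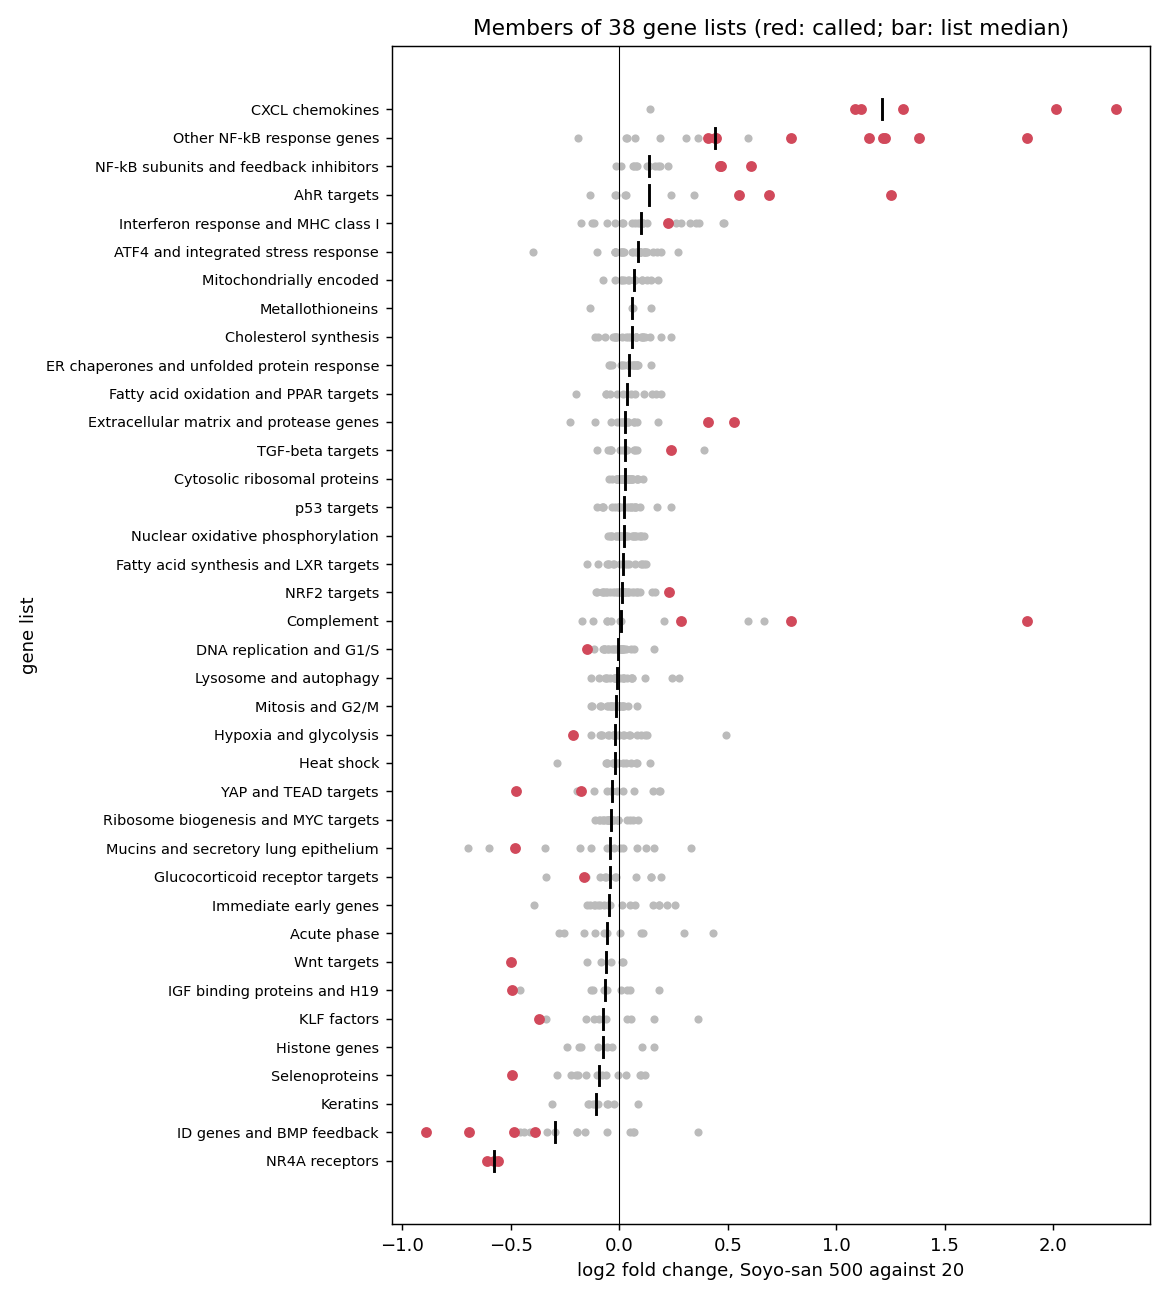
Log2 fold change of Soyo-san 500 against 20 (horizontal) for every tested member of 38 gene lists (rows, ordered by median), with called genes in red and the list median as a bar. The CXCL list lies farthest to the right (median 1.21) and the NR4A list farthest to the left (median -0.58).

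The dose of 100 µg/mL gives the step between 20 and 500. A difference in the count of calls between the steps does not by itself place the changes in the range. From 20 to 100, 1 gene was called of 17256 (0.0058%), CXCL5, and 548 genes had an unadjusted p under 0.05. From 100 to 500, 39 genes were called (0.226%), 26 higher (0.151%) and 13 lower (0.0753%). That count was 19 without 100 replicate 2 or 100 replicate 3, 22 without 500 replicate 3 and 24 without 500 replicate 1, and the count from 20 to 100 was 3 without 100 replicate 1. These steps share libraries with the comparison of 500 and 20 and are given beside it as values. Of the 57 genes higher at 500, 55 had their mean at 100 between those at 20 and 500, as had 46 of the 49 lower genes. A median of 31% of the log2 change had been reached at 100 among the higher genes and 29.4% among the lower genes, and 47 and 39 were below the midpoint of the change. The dose of 100 is 5 times 20, and 500 is 5 times 100.

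Whether the level at 100 departed from the midpoint was tested on a contrast orthogonal to the difference between 500 and 20. One gene was called (0.0058%), CYP1B1, whose level at 100 lay below the midpoint by -0.24 on the log2 scale (adjusted p = 0.00101), with 540 genes at an unadjusted p under 0.05. CYP1B1 rose by 0.59 from 100 to 500 (adjusted p = 1.06e-13) and stood at 0.10 ± 0.0432 from 20 to 100. TIPARP gave -0.23 for the same contrast and did not pass (adjusted p = 0.132). In the fit of the 9 Soyo-san libraries alone the count was 0. It was 5 without 100 replicate 1 and 2 without 100 replicate 2 or 20 replicate 3. The 3 called AhR genes had reached 0.05 to 0.26 on the log2 scale at 100, the 5 CXCL genes 0.42 to 0.86, and the 4 called ID and BMP genes -0.38 to -0.09.

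**Figure D4:**
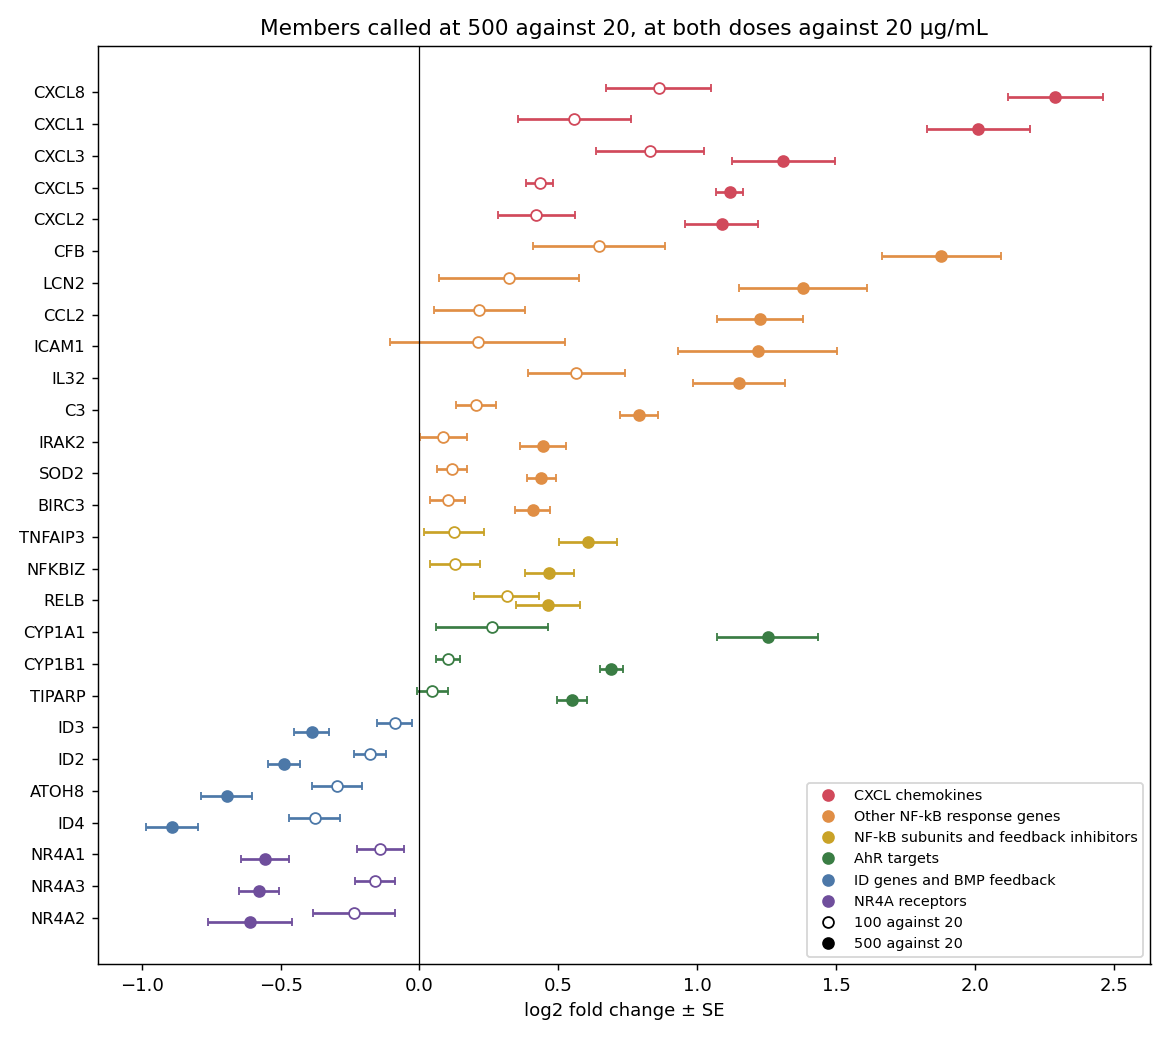
Log2 fold change ± SE (horizontal) of the called members of 6 lists, at 100 against 20 (open) and at 500 against 20 (filled) µg/mL of Soyo-san. All open points lie nearer 0 than the filled points, as for CYP1B1 (0.10 and 0.69) and CXCL8 (0.86 and 2.29), and both share the libraries at 20.

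The change of Soyo-san was set beside that of Menthae Herba, the mint herb, from 20 to 500 µg/mL. No library is shared between the 2 changes, and the difference itself was tested. It was called for 51 genes (0.296%), 45 higher (0.261%) and 6 lower (0.0348%) in the Soyo-san change. Chemokine, cytokine and complement genes were among the 45. CXCL8 changed by 2.29 with Soyo-san and by -0.49 ± 0.228 with Menthae Herba, where it did not pass (difference 2.78, adjusted p = 5.31e-09). CXCL5 rose by 1.12 with Soyo-san and fell with Menthae Herba, at -0.50 ± 0.0505 (difference 1.62, adjusted p = 3.62e-22). C3 (difference 1.03, adjusted p = 1.51e-09), CXCL1 (2.01, adjusted p = 3.11e-04) and IL32 (1.20, adjusted p = 0.0104) differed likewise, at -0.23, 0.00 and -0.05 with Menthae Herba, none of which passed. So did CFB (2.11, adjusted p = 2.79e-04), CXCL3 (1.81, adjusted p = 1.24e-04), LCN2 (1.6, adjusted p = 0.0348), CXCL2 (0.97, adjusted p = 0.00725) and C1QTNF1 (0.82, adjusted p = 1.18e-05), which did not pass with Menthae Herba either.

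The AhR genes differed the other way. CYP1A1 rose by 2.52 ± 0.167 with Menthae Herba against 1.25 with Soyo-san (difference -1.26, adjusted p = 0.00552), CYP1B1 by 1.18 ± 0.0428 against 0.69 (difference -0.48, adjusted p = 8.15e-07) and TIPARP by 1.32 ± 0.0520 against 0.55 (difference -0.77, adjusted p = 1.10e-09). AHRR (difference -0.84, adjusted p = 0.00885) and HMOX1 (difference -0.32, adjusted p = 0.00182) were also lower in the Soyo-san change. Among the genes that fell, ID4 changed by -0.83 ± 0.0925 with Menthae Herba, and its difference of -0.06 did not pass. ID2 had -0.54 and -0.49 in the 2 extracts. NR4A1 fell further with Menthae Herba, by -1.36 ± 0.0920, a difference of 0.80 (adjusted p = 1.45e-04), whereas the difference of NR4A3 did not pass (0.40, adjusted p = 0.301).

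By count, 420 genes were called in the Menthae Herba change (2.43%), 155 higher (0.898%) and 265 lower (1.54%). Of the 49 genes that fell with Soyo-san, 37 were also called lower with Menthae Herba and 48 had a negative value there. Of the 57 that rose with Soyo-san, 16 were also called higher with Menthae Herba and 33 had a positive value. The difference between the extracts was called for 23 of the 57 and for 2 of the 49. The 57 and the 49 were chosen on the Soyo-san libraries that also enter this difference, so these counts depend on that choice. The median Soyo-san change was 0.41 among the 57 and -0.27 among the 49, so the 2 counts do not compare like with like.

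Okbyeongpung-san, a decoction whose libraries carry the same first number in their names as those of Soyo-san, gave 17 called genes from 20 to 500 (0.0985%), all higher. Its CXCL8 change was 1.67 ± 0.173 and its CXCL1 change 1.82 ± 0.198. By the test of the difference from Soyo-san neither passed, which does not show that the changes are equal. The difference was 0.62 ± 0.250 for CXCL8 (adjusted p = 0.950, unadjusted p = 0.0169). For CXCL1 it was 0.19 ± 0.278 (adjusted p = 1, unadjusted p = 0.495). Of the 57 genes higher with Soyo-san, 15 were called higher and 55 had a positive value there. Of the 49 lower genes, 0 were called and 45 had a negative value. The difference was called for 5 genes (0.029%), 3 higher (0.0174%) and 2 lower (0.0116%). CXCL5 rose by 0.77 ± 0.0481 with Okbyeongpung-san (difference 0.35, adjusted p = 0.0231). CYP1B1 stood at 0.15 (difference 0.54, adjusted p = 3.45e-07) and TIPARP at 0.03 (difference 0.52, adjusted p = 1.98e-04) with Okbyeongpung-san, where neither passed. GPX1 (difference -0.47, adjusted p = 0.0112) and GRAMD1B (difference -0.28, adjusted p = 0.0439) fell with Soyo-san and stood at -0.03 and -0.00 with Okbyeongpung-san. CYP1A1, at 0.29 with Okbyeongpung-san, had a difference of 0.97 that did not pass (adjusted p = 0.690). The count of 5 was 2 without 20 replicate 1 or 500 replicate 3 of Soyo-san and 2 without 500 replicate 1 or 20 replicate 3 of Okbyeongpung-san. It was 3 without 500 replicate 1 of Soyo-san or 20 replicate 2 of Okbyeongpung-san.

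**Figure D5:**
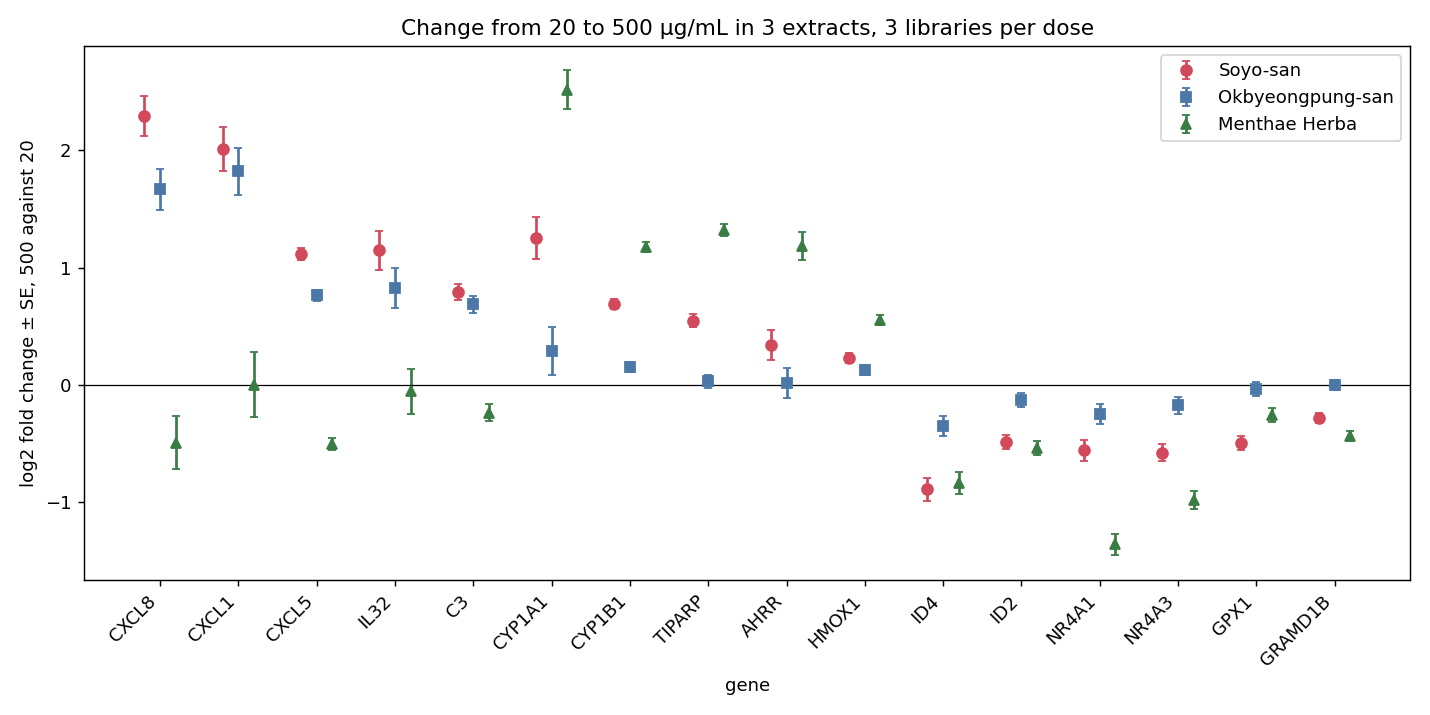
Log2 fold change ± SE from 20 to 500 µg/mL (vertical) of 16 genes with Soyo-san, Okbyeongpung-san and Menthae Herba (3 libraries per dose each). The 2 decoctions both lie above Menthae Herba for CXCL8 (2.29, 1.67 and -0.49), while Menthae Herba lies highest for CYP1A1 (2.52 against 1.25 with Soyo-san).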

How the data were processed

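A549 RNA-seq libraries were made with a directional kit and sequenced as paired reads, per the labels' protocols. Per the submitters' processing notes, FastQC 0.11.9, Trim Galore 0.6.5, STAR 2.7.3a and RSEM 1.3.3 were used on hg38 (GRCh38). The authors deposited RSEM expected counts (estimated counts) for 60675 genes in 60 libraries, and 10.5% of values were not whole and were rounded. The sources used here give neither the annotation release nor the strand setting, so overlapping and antisense genes cannot be told apart. Symbols came from a current gene table (56558) and GENCODE 29 (497), and 3620 genes without one held 0.0703 to 0.0819% of counts.

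A single edgeR 4.0.16 quasi-likelihood fit (R 4.3.3, TMM, filterByExpr) used 57 libraries in 19 groups of 3, with Benjamini-Hochberg adjustment over 17256 genes in each of 6 comparisons. The standard error comes from the test statistic, and CPM use TMM-scaled totals. Soshiho-tang (1 library per dose) was left out. Totals ran from 18330631 to 35308811 counts over all libraries, and counts limit the precision of genes near 1 CPM. No pair of libraries within a Soyo-san dose was a copy (chi-square per degree of freedom 2.96 to 22.5). The test was tried on simulated data.

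Named genes were the 14 highest and 14 lowest called genes with at least 5 CPM in either group, non-overlapping groups and a regular symbol, plus CXCL8, CYP1A1 and ID4, up to 4 called members of each of 38 lists, up to 4 each way in the midpoint contrast and up to 5 each way in each difference between extracts. Members, lists and tests were chosen with earlier results of these data known. Alternatives were DESeq2 1.42.0, its size factors, other filters and library sets, a replicate block, a mitochondrial covariate and leaving out libraries. Promoters are RefSeq entries (GRCh38.p14), and 5 called genes of the 6 lists searched had none: CCL2, C3, RELB, CYP1B1 and NR4A2. Some genes the rule would name are not reported here.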

Additional observations from a re-analysis of the deposited data

Results flagged for a closer look

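A difference between extracts in the change from 20 to 500 µg/mL was tested directly by an interaction contrast (edgeR quasi-likelihood test, Benjamini-Hochberg adjusted, 3 libraries per dose and extract). Against Menthae Herba it was called for 51 genes. The Soyo-san change was higher, among others, for CXCL8 at 2.78, CXCL1 at 2.01, CXCL5 at 1.62, IL32 at 1.20 and C3 at 1.03 on the log2 scale. Other genes given above with a higher change by this test were CFB, CXCL3, LCN2, CXCL2, PTGS2, C1QTNF1, NR4A1, IRAK2, BIRC3 and SOD2 (0.33 to 2.11). The change was lower for CYP1A1 (-1.26), AHRR (-0.84), TIPARP (-0.77), CYP1B1 (-0.48) and HMOX1 (-0.32).

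Against Okbyeongpung-san the difference was called for 5 genes. It was higher with Soyo-san for CYP1B1 (0.54), TIPARP (0.52) and CXCL5 (0.35), and lower for GPX1 (-0.47) and GRAMD1B (-0.28). The Menthae Herba libraries belong to another library set by their names than the 2 decoctions, so the extract and the library set cannot be told apart there, although each change is taken within one extract.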

How the results depend on the processing

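The 44 named called genes were refitted in 748 gene-by-setting combinations. The direction stayed in all of them, 633 kept the call, 115 lost it, and 25 genes, among them CXCL8, CYP1A1 and ID4, were called every time. DESeq2 (118), its size factors (105), the stricter filter (123) and leaving out mitochondrially encoded genes (108) gave counts near 106 for 500 against 20. This count was 177 without a filter, 67 in library set 7 alone, 220 with the mitochondrial share as covariate, 35 in the 9 Soyo-san libraries alone, 62 without the 3 libraries of highest mitochondrial share, and 62 to 82 with 1 library left out. Of the 177, 67 were among the 106.

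For 100 against 20 the count of 1 became 71 without a filter, 2 in library set 7 alone, 2 without the 3 libraries and 1 to 3 with 1 left out. For 500 against 100 the count of 39 became 126 without a filter, 21 in set 7 alone, 87 with the covariate, 13 in the 9 libraries, 19 without the 3 libraries and 19 to 29 with 1 left out. For the midpoint, 1 became 87 without a filter, 2 with DESeq2, 0 in the 9 libraries, 2 without the 3 libraries and 1 to 5 with 1 left out. The difference from Menthae Herba (51) gave 98 with the covariate, 118 without a filter and 38 to 53 with 1 left out. That from Okbyeongpung-san (5) gave 2 in set 7 alone, 19 with the covariate, 78 without a filter, 3 without the 3 libraries and 2 to 6 with 1 left out. Some of these alternatives hold fewer libraries or test more genes by construction, and otherwise the cause was not tested.

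The replicate block gave 154 for 500 against 20, 46 for 500 against 100, 70 for the difference from Menthae Herba and 7 for that from Okbyeongpung-san. In the 9 libraries alone, a block added after seeing the data gave 42, 1, 19 and 0 for 500 against 20, 100 against 20, 500 against 100 and the midpoint. Same-numbered libraries did not deviate together throughout (correlations -0.0661 to 0.232, median 0.0645). Pairs with other numbers ran from -0.155 to 0.163 (median -0.0108), and 5 of 9 libraries correlated best with their own number. Of the pairs compared, 9 had the same number and 18 had other numbers. Whether same-numbered libraries share more than a number was not tested. Leaving out the 3 libraries was also added after seeing the data.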

Other observations

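The remaining gene lists gave few calls from 20 to 500 µg/mL of Soyo-san. One member fell in each of the hypoxia and glycolysis list (SLC2A3, of 23), the G1/S list (CCND1, of 27), the KLF list (KLF4, of 10), the glucocorticoid receptor targets (ERRFI1, of 12), the mucin and secretory list (SPDEF, of 14) and the Wnt targets (RNF43, of 6). The tested members of the metallothionein (4), histone (8), keratin (10), fatty acid oxidation (12), fatty acid synthesis (16), lysosome (23), ribosome biogenesis (25) and nuclear oxidative phosphorylation (26) lists had 0 calls by edgeR and by DESeq2. At an unadjusted p under 0.05 there were 1 metallothionein, 4 keratins, 5 fatty acid oxidation genes, 2 fatty acid synthesis genes, 1 lysosome gene and 0 in the others, and without a filter 1 keratin was called lower. Keratins had 9 of 10 fold changes below 0, with a median of -0.11, and ATF4 targets had 24 of 30 above 0, with a median of 0.09. The imprinted RNA H19 stood at -0.46 and did not pass (adjusted p = 0.0588).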
